A study of Mus musculus with 10 samples.

Results

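The genes described here are 31 cation channel genes of the TRP families and of other mechanosensitive families, chosen by symbol from the 55401 genes of a table of read counts from sorted meningeal lymphatic endothelial cells (LECs). They comprise Trpc1, Trpc2 and Trpc4 to Trpc7, Trpm1 to Trpm8, Trpv1 to Trpv6, Trpa1, Mcoln1 to Mcoln3, Pkd2, Pkd2l1 and Pkd2l2, Piezo2, and Tmem63a to Tmem63c. The cells came from the meninges of female C57BL/6 mice (C57BL/6J in the methods) that were 3 months old. In the SCVS group, the mice had gone through sub-chronic variable stress, in which foot shock, tail suspension and restraint alternated over 6 days. The naive group had no stress. Each group had 5 replicates, each pooled from the meninges of 3 to 4 mice, and the labels name no transgene. Cells were digested in the presence of actinomycin D, which blocks transcription, and viable cells were sorted as CD45-CD31+PDPN+, that is, without the leukocyte marker and with an endothelial and a lymphatic marker. Their RNA was amplified with a whole-transcriptome kit before sequencing. The family was taken up after the contrast of SCVS with naive mice had been computed, and Trpm1 had already been pointed out in it. The values for that contrast are therefore descriptions, and no test is read from them.

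TRP channels are tetramers that let sodium, calcium and in some cases magnesium into the cell or out of its organelles. They open to lipids made by phospholipase C, to heat and cold, to plant irritants, to intracellular calcium or nucleotides, or to swelling and shear. Piezo and TMEM63 channels open when the membrane is stretched. In endothelium such channels couple blood or lymph flow to calcium signalling, while mucolipins work in lysosomes and polycystins largely in the primary cilium and the endoplasmic reticulum.

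Trpm1 and Trpm3 each host a microRNA. In the mm9 annotation, Trpm1 (ENSMUSG00000030523) spanned chr7:71298721-71414643 on the plus strand and held Mir211 in an intron, at chr7:71350692-71350797 on the same strand. Trpm3 spanned chr19:22213609-23064374 on the plus strand and held Mir204 in an intron, at chr19:22825095-22825162. The mature 5p sequences, from RefSeq on GRCm38.p6, are shown because they share a seed, the bases 2 to 8 that pair with targets, written here in capitals.
mmu-miR-204-5p: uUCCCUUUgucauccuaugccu
mmu-miR-211-5p: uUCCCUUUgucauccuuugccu
Both have 22 bases, and the difference between them is A17U, read from miR-204-5p to miR-211-5p with positions counted from the 5′ end. The rows for Mir204 and Mir211 had 0 counts in all 10 replicates, while their host genes held 6590 (Trpm3) and 286 (Trpm1) reads. The libraries came from a whole-transcriptome kit and not from small RNA, so these zeros do not measure mature microRNAs of 22 bases. For a transcript that the libraries capture, a count of 0 at these depths allows up to between 0.213 and 0.3005 CPM. CPM is the count per 1000000 reads that were counted on genes.

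Promoter windows of 300 bases, from 250 before to 50 after an annotated start, are shown for Trpm1, the channel gene whose groups did not overlap, and for Mcoln1, the channel gene with the most even level among the SCVS replicates. They come from RefSeq on GRCm38.p6 and lie on the plus strand. Capitals mark CACGTG and CATGTG, or its reverse complement CACATG, E-box motifs of the kind that the MITF and TFE family of transcription factors recognises.
Trpm1, chr7:64153585-64153884: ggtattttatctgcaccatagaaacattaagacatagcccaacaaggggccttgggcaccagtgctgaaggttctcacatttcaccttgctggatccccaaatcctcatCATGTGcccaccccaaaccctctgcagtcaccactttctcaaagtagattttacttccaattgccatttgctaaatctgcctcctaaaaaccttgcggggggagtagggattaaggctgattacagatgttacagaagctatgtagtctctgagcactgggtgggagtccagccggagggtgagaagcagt
Trpm1, chr7:64185209-64185508: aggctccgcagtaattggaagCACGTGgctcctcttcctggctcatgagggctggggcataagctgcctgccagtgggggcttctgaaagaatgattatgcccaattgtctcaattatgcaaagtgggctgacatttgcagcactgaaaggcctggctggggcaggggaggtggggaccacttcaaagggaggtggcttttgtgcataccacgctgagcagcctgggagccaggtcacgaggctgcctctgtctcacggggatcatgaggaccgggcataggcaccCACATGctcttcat
Mcoln1, chr8:3500269-3500568: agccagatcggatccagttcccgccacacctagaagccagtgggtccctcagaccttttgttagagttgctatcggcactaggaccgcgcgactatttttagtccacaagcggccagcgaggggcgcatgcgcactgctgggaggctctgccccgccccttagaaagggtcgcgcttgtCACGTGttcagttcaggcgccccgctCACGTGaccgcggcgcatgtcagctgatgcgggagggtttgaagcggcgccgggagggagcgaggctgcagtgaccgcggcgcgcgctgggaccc
The first Trpm1 window held CATGTG, starting 141 bases before the start site. The second held CACGTG at 229 bases before the start site and CACATG at 37 bases after it. The Mcoln1 window held CACGTG at 71 and at 45 bases before the start site. On either strand, CACGTG was found in 7.15% of all 32851 windows and CATGTG in 14.2%. Over the 26 channel genes with a window, CACGTG was found for 5, namely Mcoln1, Mcoln2, Trpm1, Trpm7 and Trpv3, and CATGTG for 6, namely Tmem63a, Trpc2, Trpm1, Trpm2, Trpm6 and Trpv5. A longer palindrome with CACGTG at its centre was also searched for. It was found for 0 of these channel genes and in 0.326% of all 32851 windows. The 26 channel genes held 31 windows, too few for the absence of so rare a motif to say much. The shares are per window and the channel counts per gene, so they cannot be compared directly. A match of letters is a description of these windows.

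Total counts per replicate lay between 9984743 and 14094155, and 14815 genes passed the filter, which asked for over 5 counts in 3 or more replicates. The sorted identity was not equally clear in every pool. Naive 5 had 542 summed CPM over 6 pan-endothelial markers, against 5088 to 7837 in the other naive replicates and 4404 to 7446 in SCVS, and its mean correlation with its own group was 0.50 against 0.60 to 0.63. It also had 2179 summed CPM over 6 neuronal markers, against 47.9 to 226 in the other naive replicates, and the highest SCVS value was 1182, in SCVS 5. Over 9 lymphatic markers, naive 1 (74.4 summed CPM) and naive 5 (195.6) lay below the other naive replicates (1068 to 2929) and below all SCVS replicates (471 to 3243). Prox1, the transcription factor that sets lymphatic identity, had 0 counts in naive 1 and 843 in naive 5, and the hyaluronan receptor gene Lyve1 had 2 counts in naive 1 and 1 in naive 5. Low Prox1 was not confined to naive 1, with 2 counts in SCVS 5, 15 in SCVS 1 and 56 in naive 4. Lyve1 had 971, 2636 and 4099 counts in those pools. The marker lists for myeloid and mural cells had fold changes mostly in 1 direction, but their summed levels overlapped between the groups. Myeloid markers summed to 15.2 to 646 CPM in naive and 133 to 4513 CPM in SCVS replicates. Mural markers summed to 769 to 7532 CPM in naive and 406 to 5846 CPM in SCVS replicates. All 8 myeloid markers were higher in SCVS (median log2 fold change 2.81) and 5 of 6 mural markers were lower (median -1.99), with 1 gene of each list past an adjusted p under 0.1 in DESeq2 and 0 in edgeR. Other lists leaned to 1 side too. In SCVS, 7 of 9 lymphatic markers were higher (median 0.82). Of the neuronal markers 5 of 6 were lower (median -0.36), as were 4 of 5 tested Schwann and glial markers (median -0.24). None of these further lists had a gene past that threshold in either fit. The part of these cells in the channel genes' values was not tested. Values that rest on naive 1 or naive 5 are given with and without them. In pooled cells of this kind, fewer cells of a type and less RNA per cell cannot be told apart, and the labels do not give the cohort of any replicate.

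The 31 channel genes held 58834 reads in all, but unevenly. Trpm3, Trpm7, Pkd2, Piezo2 and Tmem63a had over 3 counts in all 10 replicates and Mcoln1 in 9, and these 6 genes held 82.0% of the reads. A further 8 genes were over 3 counts in 5 to 7 replicates, 13 in 1 to 3, and 4 (Trpv1, Trpv5, Trpv6 and Pkd2l1) in none. Of the 31 genes, 15 passed the filter on low counts (48.4%, against 26.7% of all genes in the table), and the other 16 held 2127 reads together. Between 8 and 13 channel genes were over 3 counts in a naive replicate (10.2 ± 2.17, SD, n = 5) and between 13 and 18 in an SCVS replicate (15.4 ± 2.07, SD, n = 5). Over the whole table, the genes over 3 counts numbered 11265 to 13109 in naive and 12082 to 13993 in SCVS replicates. The summed level of the channel genes was 247 to 508 CPM in naive replicates and 256 to 698 CPM in SCVS replicates, and naive 5 and SCVS 5 were the lowest of their groups.

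**Figure D1:**
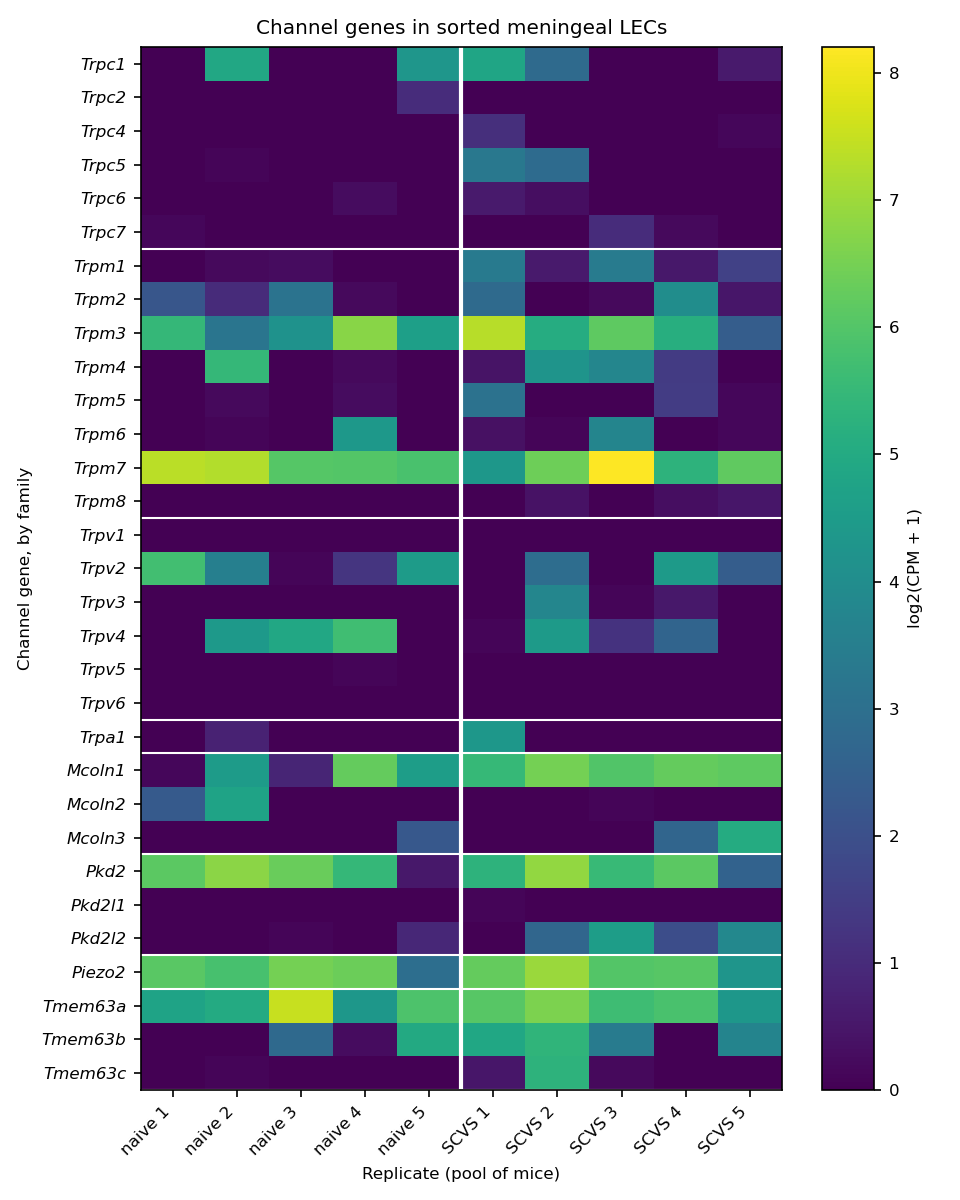
Level of each of the 31 channel genes (rows, by family) in each of the 10 replicates (columns, a white line between naive and SCVS), as colour on the scale log2(CPM + 1). Trpm3, Trpm7, Pkd2, Piezo2 and Tmem63a are over 3 counts in every column, Mcoln1 is so in 9, and most other genes appear in a few pools only.

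Levels can be compared between genes only per length, here as CPM per kb of exon, with exon lengths from the mm9 annotation. The mean level over the 10 replicates was 13.5 ± 10.9 CPM per kb for Tmem63a, 13.2 ± 9.42 for Mcoln1, 8.90 ± 7.22 for Trpm7, 6.10 ± 5.97 for Trpm3, 5.66 ± 3.82 for Pkd2 and 4.98 ± 2.59 for Piezo2 (SD, n = 10 each). No neighbours in this order differed beyond their spread, since the higher of each pair was higher in only 5 to 7 of the 10 replicates. Trpv4, Trpc1, Trpv2 and Tmem63b followed, with means between 2.50 and 3.15 CPM per kb. The order of the means was not the same within each group. Mcoln1 was first among SCVS pools (19.4 ± 4.82 CPM per kb, SD, n = 5) and behind Tmem63a and Trpm7 among naive pools (6.96 ± 8.88). Trpv4 had a mean of 4.94 ± 5.30 CPM per kb among naive pools, beside 4.84 ± 4.78 for Trpm3, and of 1.36 ± 2.20 among SCVS pools (SD, n = 5 each). Trpm1 had a mean of 0.195 ± 0.338 CPM per kb (SD, n = 10). On this scale the related gene Piezo1, which was not among the 31, had a mean of 2.20 ± 2.11 CPM per kb (SD, n = 10).

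**Figure D2:**
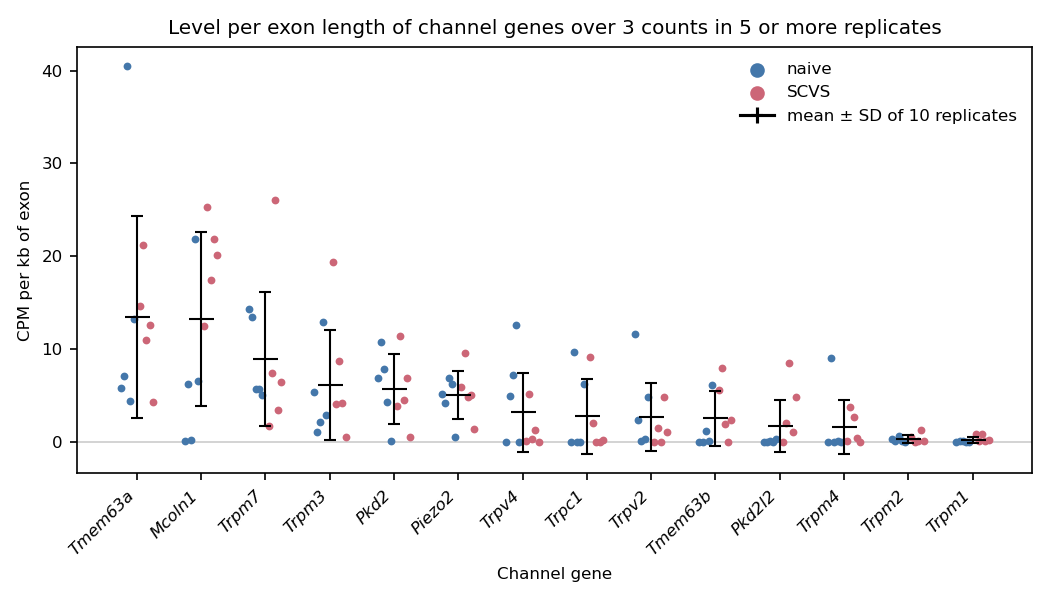
Level per kb of exon (y axis, CPM per kb, linear) of the 14 channel genes over 3 counts in at least 5 replicates, ordered by mean. Points are replicates (naive and SCVS in 2 colours) and bars are the mean ± SD of all 10, and the bars of Tmem63a (13.5 ± 10.9) to Piezo2 (4.98 ± 2.59) overlap.

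The TRPC channels open downstream of receptors that activate phospholipase C. Trpc1, which encodes a subunit that assembles with other TRPC proteins, had 0, 370, 0, 0 and 249 counts in naive 1 to 5 and 388, 75, 0, 0 and 5 in SCVS 1 to 5. Each group thus held pools at 0 beside a pool with 370 or 388 counts, and the groups overlapped. The remaining TRPC genes did not pass the filter. Trpc5, which encodes a receptor-operated channel, had 122 counts in SCVS 1, 76 in SCVS 2 and 1 in naive 2. Trpc2, the channel gene of the vomeronasal organ, had 14 counts in naive 5 and none elsewhere. Trpc4 was seen in SCVS 1 (16 counts) and SCVS 5 (1 count), Trpc6 in naive 4 (3), SCVS 1 (7) and SCVS 2 (3), and Trpc7 in naive 1 (1), SCVS 3 (13) and SCVS 4 (2). Trpc6 and Trpc7 encode channels opened by diacylglycerol, the lipid that phospholipase C makes.

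The TRPM family held both genes counted in every pool and genes seen in few. Trpm7 encodes a magnesium-permeable channel fused to a kinase. It had 1686, 1938, 905, 867 and 757 counts in naive 1 to 5 and 269, 1014, 3629, 510 and 729 in SCVS 1 to 5. The lowest and the highest pools were both SCVS, and the group means were 99.8 ± 52.2 and 101.7 ± 110.8 CPM (SD, n = 5 each). Trpm3 encodes a channel opened by heat and by the steroid pregnenolone sulfate. It had 455, 104, 242, 1443 and 317 counts in naive and 2246, 402, 882, 455 and 44 in SCVS, or 39.8 ± 39.4 and 60.5 ± 60.2 CPM (SD, n = 5 each). The lowest and the highest pools of Trpm3 were likewise both SCVS, and the groups overlapped.

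Trpm1 encodes melastatin, the channel of ON bipolar cells in the retina, also known in melanocytes. Naive 1 to 5 had 0, 2, 3, 0 and 0 counts and SCVS 1 to 5 had 131, 6, 118, 6 and 20. Every SCVS pool lay above every naive pool, 2 of them by a wide margin and 2 by 6 counts against 3. The mean level was 0.0743 ± 0.104 CPM among naive pools and 4.36 ± 4.67 CPM among SCVS pools (SD, n = 5 each). The pooled counts, 5 against 281, gave a ratio of 58.3 (95% interval 24.7 to 180.8, exact and for counting error only), and edgeR's log2 fold change was 5.68 (SE 1.92). Without naive 5 that value was 5.40, and without naive 1 and naive 5 it was 5.03. Trpm1 was the only channel gene of the 15 whose groups did not overlap, and it passed the filter only through SCVS pools. Over all 14815 genes tested this held for 0.628% in either direction, 0.445% higher and 0.182% lower in SCVS, and since Trpm1 was in view beforehand nothing is read from the count.

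Melanocyte markers were set beside Trpm1. Of 12 such genes, 8 were over 3 counts in at least 1 replicate and 4 passed the filter. Among the defining markers, the tyrosinase gene Tyr had 0 counts in every replicate, and Mlana had 1 count, in naive 4. The melanosome gene Pmel had 38 counts in SCVS 1 and 1 each in naive 1 and SCVS 3, and Dct, a pigment enzyme gene, had 5 in naive 5, 1 in SCVS 2, 9 in SCVS 3 and 5 in SCVS 4. Gpr143 had no count, Tyrp1 had 1, in SCVS 5, Slc45a2 had 7 in naive 1 and 1 in SCVS 1, and Oca2 had 1 in SCVS 3 and 8 in SCVS 4. Slc24a5 and 3 genes that other cell types also express, Sox10, Mitf and Kit, reached between 242 and 854 counts in the highest pool of each group. For Slc24a5 the counts were 165, 0, 0, 1 and 272 in naive and 0, 161, 8, 0 and 391 in SCVS. The summed level over the 12 genes was 1.33 to 123 CPM in naive and 3.62 to 109 CPM in SCVS mice. The lowest SCVS sum was in SCVS 1, where Trpm1 had 131 counts, and the highest naive sum in naive 5, where Trpm1 had 0. Pmel, by contrast, was highest in SCVS 1, and Dct was highest in SCVS 3, where Trpm1 had 118 counts. The part of these genes in the Trpm1 counts was not tested.

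The other TRPM genes did not separate the groups. Trpm2, opened by ADP-ribose, had 37, 13, 109, 2 and 0 counts in naive and 87, 0, 2, 201 and 4 in SCVS, with its highest pool in SCVS 4. SCVS 4 also had the highest summed level over 8 myeloid markers, 4513 CPM against 15.2 to 820 in the others, although the sort took CD45- cells. Naive 3, with 109 Trpm2 counts, had 19.6 CPM of myeloid markers, and SCVS 1, with 87 Trpm2 counts, had 201.5 CPM. Naive 4 and SCVS 3, with 2 Trpm2 counts each, had 646 and 820 CPM. The part of myeloid cells in the Trpm2 counts was not tested. Trpm4, a calcium-activated channel that passes monovalent ions, had 0, 548, 0, 2 and 0 counts in naive and 5, 217, 156, 22 and 0 in SCVS. Nearly all its naive reads were thus in naive 2. Trpm5, its closest relative, had 105, 0, 0, 23 and 1 counts in SCVS against 0, 2, 0, 3 and 0 in naive, and did not pass the filter. In the mm9 annotation Trpm5 shares 220 exon bases with Tssc4 on the opposite strand, which had 141 to 1625 counts in every replicate. Trpm6, a channel-kinase like Trpm7, was held by naive 4 (270 counts) and SCVS 3 (150), with 1 count in naive 2 and 4, 1 and 1 in SCVS 1, 2 and 5. Trpm8, the menthol and cold channel gene, had 4, 3 and 4 counts in SCVS 2, 4 and 5 and 0 in all naive pools. With 3 counts allowed over the whole naive group the ratio was 3.80. It leaves out the counting error of the 11 SCVS counts, each of them in a pool at or near the floor.

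**Figure D3:**
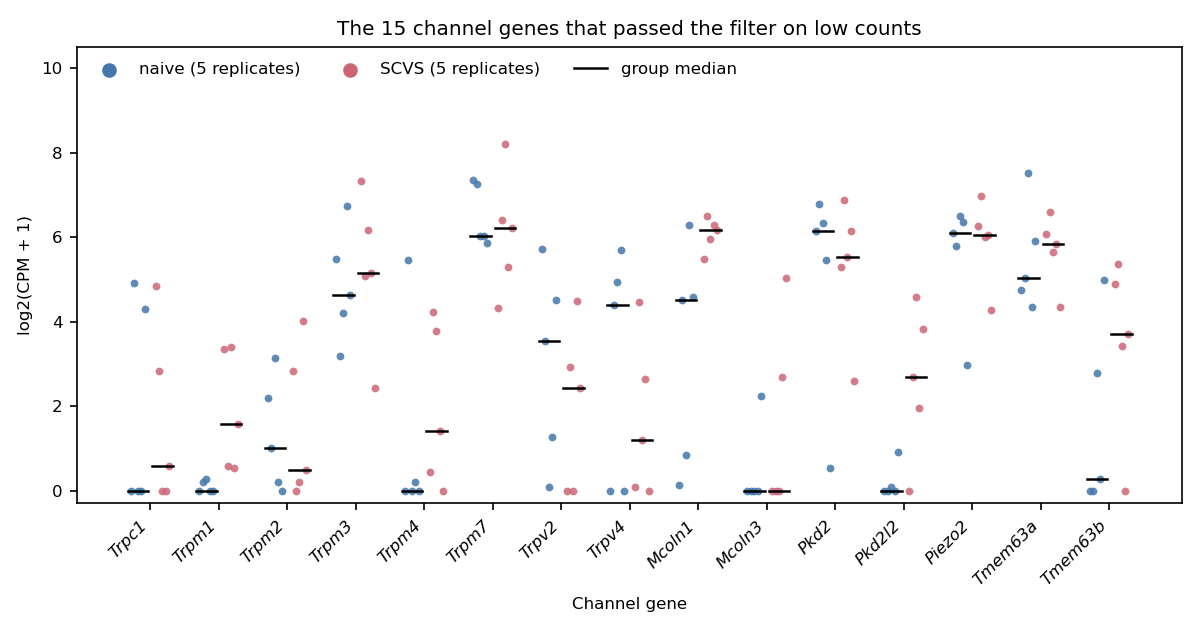
Level of the 15 channel genes that passed the filter, as log2(CPM + 1), with naive and SCVS replicates in 2 colours (5 points each) and black lines at the group medians. For Trpm1 every SCVS point lies above every naive point, and for the other 14 genes the groups overlap.

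The TRPV channels include heat sensors, a channel for swelling and shear, and calcium-selective epithelial channels. Trpv4, the swelling and shear channel best known in endothelium, had 0, 256, 412, 695 and 0 counts in naive and 1, 257, 16, 69 and 0 in SCVS. Its means were 20.1 ± 21.6 and 5.54 ± 8.96 CPM (SD, n = 5 each), the groups overlapped, and the log2 fold change was -1.99 (SE 2.18). The 2 naive pools at 0 were the 2 low in lymphatic markers, and in SCVS the pool at 0, SCVS 5, was also the lowest of its group in those markers, while SCVS 1, with 1 count, had 1421 summed CPM of them. The naive mean was 25.2 ± 21.3 CPM without naive 5 (SD, n = 4), and the log2 fold change was -2.29 without naive 5 and -2.72 without naive 1 and 5. It depended as much on other pools, with -3.57 without SCVS 2 and -1.31 without naive 4. Trpv2 had 542, 136, 1, 19 and 289 counts in naive and 0, 80, 0, 283 and 44 in SCVS. Its log2 fold change was -1.47 (SE 1.98) with all pools and 0.70 without naive 1 and 5, which held 831 of its 987 naive counts. The order of the groups for Trpv2 therefore rested on the 2 pools low in lymphatic markers. Trpv3, a warmth channel of skin, had 153 counts in SCVS 2, 1 in SCVS 3, 6 in SCVS 4 and 0 in all naive pools. With 3 counts allowed over the whole naive group the ratio was 55.3. That ratio rested on SCVS 2, and without it the 7 remaining counts gave 3.01. Neither ratio covers the counting error of the SCVS counts. Trpv5 had 1 count in all, in naive 4, and Trpv1, the capsaicin receptor gene, and Trpv6 had none. Trpa1, the irritant receptor gene of sensory neurons, had 273 counts in SCVS 1, 9 in naive 2 and 0 elsewhere.

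The mucolipins are calcium channels of endosomes and lysosomes. Mcoln1, the gene mutated in mucolipidosis type IV, had 1, 280, 11, 1043 and 305 counts in naive and 620, 1086, 758, 1016 and 708 in SCVS. The SCVS pools lay close together, whereas the naive pools ranged from 1 count to a level within the SCVS range in naive 4. Means over 5 pools were 24.5 ± 31.3 CPM (naive, SD) and 68.5 ± 17.0 CPM (SCVS, SD), with coefficients of variation of 127.5% and 24.8%. The log2 fold change was 1.47 (SE 1.16), 1.46 without naive 5 and 1.05 without naive 1 and 5. Naive 4 was the only naive pool above any SCVS pool, and without it the groups did not overlap and the log2 fold change was 2.54. Mcoln2 had 42 counts in naive 1, 331 in naive 2 and 1 in SCVS 3, and did not pass the filter. Mcoln3 had 50 counts in naive 5, 72 in SCVS 4 and 318 in SCVS 5, and 0 in the other 7 pools. Naive 5 and SCVS 5 also had the highest summed neuronal markers of their groups, and their part in the Mcoln3 counts was not tested. Without naive 5, Mcoln3 had no naive count.

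**Figure D4:**
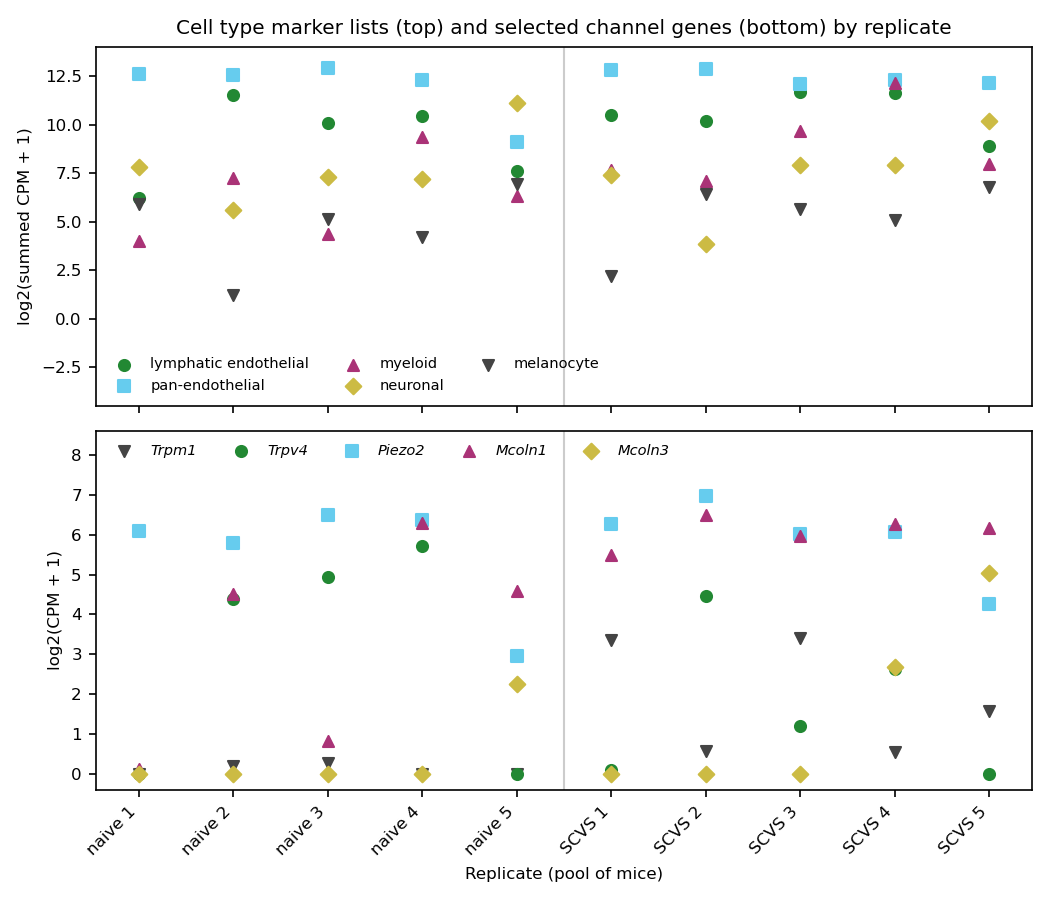
Summed level of 5 lists of cell type markers, as log2(summed CPM + 1) (top), and level of Trpm1, Trpv4, Piezo2, Mcoln1 and Mcoln3, as log2(CPM + 1) (bottom), in each of the 10 replicates. Naive 5 is low in pan-endothelial (542 CPM) and high in neuronal markers (2179 CPM), naive 1 and naive 5 are low in lymphatic markers, and Trpv4 is at 0 in both.

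The polycystins form channels with polycystin-1 proteins. Pkd2, encoding polycystin-2 of the primary cilium, had 722, 1389, 1119, 582 and 6 counts in naive and 543, 1412, 559, 921 and 50 in SCVS. Naive 5 and SCVS 5 stood far below the rest of their groups, and the other 8 pools lay between 543 and 1412 counts. The means were 60.3 ± 40.9 and 54.9 ± 41.2 CPM (SD, n = 5 each), and the naive mean without naive 5 was 75.2 ± 27.3 CPM (SD, n = 4). Pkd2l1 had 1 count in all, in SCVS 1. Pkd2l2, a less studied relative, had 0, 0, 1, 0 and 12 counts in naive and 0, 67, 283, 38 and 131 in SCVS. Of the SCVS pools, 4 lay above all naive pools and SCVS 1 was at 0. The pooled counts, 13 against 519, gave a ratio of 41.4 (95% interval 24.0 to 78.2, counting error only), and the log2 fold change was 5.42 (SE 2.38) with all pools, 8.28 without naive 5 and 8.04 without naive 1 and 5. Pkd2l2 shares 414 exon bases with Fam13b on the opposite strand, which had 37, 254, 67, 209 and 0 counts in naive and 6, 601, 616, 26 and 324 in SCVS. Where strand was not used in counting, reads in that overlap cannot be told apart, and the sources used here do not give the strand setting.

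Piezo2, the touch and proprioception channel gene, had 700, 700, 1257, 1103 and 91 counts in naive and 1078, 1522, 781, 870 and 183 in SCVS. The lowest pools were again naive 5 and SCVS 5, and the coefficients of variation were 54.4% and 54.6%. The means were 60.0 ± 32.6 and 69.8 ± 38.1 CPM (SD, n = 5 each), and without naive 5 the naive mean was 73.3 ± 15.5 CPM (SD, n = 4). Its log2 fold change was 0.14 (SE 0.66) with all pools and -0.14 without naive 5. Piezo1, the paralog known for lymphatic valve formation, had 42, 329, 91, 968 and 0 counts in naive and 258, 364, 126, 481 and 159 in SCVS, so it too was at its lowest in naive 5.

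The TMEM63 channels are mechanically gated relatives of the plant OSCA channels. Tmem63a had 271, 405, 2543, 265 and 793 counts in naive and 929, 1162, 608, 747 and 193 in SCVS. Naive 3 stood apart, and the means of 63.7 ± 67.8 and 57.3 ± 27.6 CPM (SD, n = 5 each) overlapped. Tmem63b had 0, 0, 83, 3 and 412 counts in naive and 403, 490, 120, 0 and 120 in SCVS. Most of its naive reads were in naive 5, and its log2 fold change was 1.17 (SE 2.09) with all pools and 3.43 without naive 5. Tmem63b shares 106 exon bases with Mrpl14 on the opposite strand, which had 392 to 1061 counts in every replicate. Tmem63c had 469 counts in SCVS 2, 6 in SCVS 1, 2 in SCVS 3 and 1 in naive 2.

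Across the 15 genes that passed the filter, 9 had a higher and 6 a lower level in SCVS by edgeR's fit, with a median log2 fold change of 0.14, beside 48.2% higher and a median of -0.03 over all 14815 genes tested. By edgeR's quasi-likelihood fit, adjusted over all tested genes by Benjamini and Hochberg, 0 channel genes had an adjusted p under 0.1, as did 0% of the tested genes. Before adjustment, 2 channel genes, Trpm1 and Pkd2l2, had a p under 0.05, beside 3.1% of all tested genes. DESeq2 gave 0 channel genes an adjusted p under 0.1, with 0.814% of its 13998 genes past that threshold, and 4.72% of them had an unadjusted p under 0.05. For Trpm1 the DESeq2 p was 0.00129 before adjustment and 0.138 after it. The paper, which used DESeq2 with the same threshold, counted Trpm1 among the genes raised by SCVS. Its run called more genes in all than the 114 called by DESeq2 here, so the difference is not particular to Trpm1. Detection was uneven within groups. Of the 15 genes, 5 had 0 counts in a naive pool and at least 100 in another, beside 34.8% of all tested genes, and 8 did so among SCVS pools, beside 32.5%. Tmem63b, Trpc1, Trpm2, Trpm4 and Trpv4 were uneven in both groups, and Mcoln3, Pkd2l2 and Trpv2 in SCVS.

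The composition of the promoter windows, which the choice of the family did not use, was set beside how often each gene was detected. The observed over expected CpG ratio had a median of 0.790 over the 6 windows of 5 genes over 3 counts in 9 or 10 replicates. It was 0.319 over the 9 windows of 6 genes detected in 5 to 7 replicates and 0.250 over the 16 windows of 15 genes detected in 0 to 3, where the median of all 32851 windows was 0.384. The 0.319 gives extra weight to Trpv2, with 3 windows (0.096, 0.106 and 0.319), and Trpm1, with 2 (0.114 and 0.248). The other genes of that group, Trpc1, Tmem63b, Trpm2 and Trpv4, had 1 window each, and all of these lay above 0.384. These medians over windows are therefore not medians over genes. The highest ratio, 1.16, was that of Trpm7. The groups overlapped widely. Trpv4 (0.833), Tmem63b (0.825) and Trpc1 (0.754), seen in 5 or 6 replicates, had high ratios, as did Mcoln2 (0.788), seen in 2, and Trpc6 (0.638), seen in 1. Pkd2 (0.399) and the second Trpm3 window (0.397) had low ratios although both genes were seen in all 10 replicates. These are descriptions over few genes, and windows of 1 gene overlap or share a neighbourhood.

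**Figure D5:**
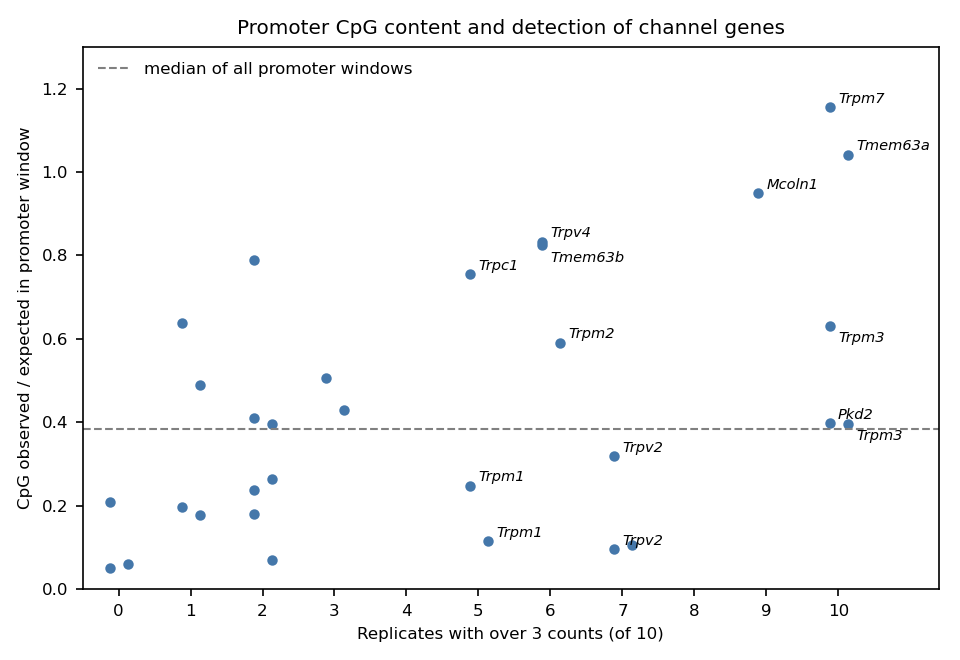
CpG observed over expected in each promoter window of 300 bases (y axis, ratio) against the number of replicates in which the gene had over 3 counts (x axis, of 10), with labels for genes detected in at least 5 and a dashed line at the median of all windows (0.384). Trpm7, Tmem63a and Mcoln1 lie at the upper right, and Trpm1 and Trpv2 lie low although detected in 5 and 7 replicates.

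Genes that work with these channels were counted by lists. Of 14 tested genes of the phospholipase C, IP3 receptor and store-operated entry route, which acts before the TRPC channels, 0 passed an adjusted p under 0.1 in either direction (median log2 fold change 0.15). The same held for 10 genes of calmodulin, calcineurin and NFAT, which act after calcium entry (-0.24), for 4 polycystin-1 relatives that pair with polycystin-2 proteins (0.49), and for 3 genes that make phosphatidylinositol 3,5-bisphosphate, the lipid that opens mucolipins (-0.14). It also held for 7 genes of neighbouring channel families, with Piezo1 among them (0.14). Over all 38 genes, 21 were higher and 17 lower in SCVS with a median of 0.03, and none had an unadjusted p under 0.05 in edgeR or an adjusted p under 0.1 in DESeq2.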

How the data were processed

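Counts per gene were taken as the authors deposited them, without normalization or a filter on low counts, 1 column per replicate. According to the methods, RNA was amplified with a whole-transcriptome kit, sequenced in pairs, trimmed and aligned to mm9. The submitters' processing notes instead name the build GRCm38, together with cutadapt 1.9.1, HISAT2 2.0.1, HTSeq 0.6.1 and DESeq2. The annotation and strand setting are not given in the sources used here. Of the 55401 identifiers, 58.8% were found in the mm9 annotation (GENCODE M1), and 30 of the 31 channel genes, Trpc2 being the exception. The build of the counts is thus unsettled. Gene coordinates and exon lengths are those of mm9, sequences those of RefSeq on GRCm38.p6, and no coordinates were converted. Amplification without molecular identifiers means that intervals and floors cover counting error only, and reads are not independent molecules.

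CPM were computed from column totals (9984743 to 14094155 counts), with a floor of 3 counts. Genes with over 5 counts in at least 3 of 10 replicates (14815) were tested with edgeR 4.0.16 (quasi-likelihood, TMM, Benjamini-Hochberg, threshold 0.1) in R 4.3.3, SCVS against naive. No block was used, since same-numbered pools are different animals and the labels give no cohort. A shared cohort is not excluded by this, and a fit with a block is given at the end. The SE is the log2 fold change divided by the root of F. The test was checked on simulated data, where at the spread estimated from these pools it recovered none of the genes given a large change, so that a count of 0 past the threshold is weak evidence of no change. Alternatives were DESeq2 1.42.0, other scalings, no filter, a replicate block, and leaving out replicates. Python 3.11.15 with pandas 2.3.3, SciPy 1.17.1 and Matplotlib 3.10.9 was used. P-values measure the spread between these pools only. The channel genes and all lists were chosen with earlier results of these data known. Every channel gene is named, with all replicate values for those that passed the filter. Of the lists, counts and ranges are given, with the melanocyte genes in full. Further marker lists summed to 406 to 7532 CPM (mural), 0 to 138 CPM (mast), 79.4 to 1716 CPM (Schwann and glial), 136 to 1942 CPM (fibroblast) and, for blood endothelium, to 313 CPM in naive 5 and 5219 to 10273 CPM in the others. The omission of naive 1 and 5 together, and the alternatives for the partner genes, were chosen after the counts had been seen.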

Additional observations from a re-analysis of the deposited data

Results flagged for a closer look

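In each group of 5 replicates the gap between the highest or lowest pool and its neighbour was divided by the range of the group, and values above Dixon's 95% limit of 0.710 are listed. This held in 20 of the 43 combinations of channel gene and group that could be checked (46.5%), beside 40.6% of 40556 such combinations over all genes of the table. Chance gives about 1 in 20 for normally distributed values, a condition not met by counts this patchy, and in the 4 combinations with reads in a single pool the ratio is 1.0 by construction. Among naive pools, naive 5 stood apart for Trpc2 (1.0, 14 counts), Mcoln3 (1.0, 50 counts), Pkd2l2 (0.921, 12 counts) and Tmem63b (0.808, 412 counts). Naive 2 did so for Trpm4 (0.997, 548 counts), Trpa1 (1.0, 9 counts) and Mcoln2 (0.845, 331 counts). Naive 3 did so for Tmem63a (0.754, 2543 counts) and naive 4 for Trpm6 (0.996, 270 counts). Among SCVS pools, SCVS 1 stood apart for Trpc1 (0.776, 388 counts), Trpc4 (0.912, 16 counts), Trpm5 (0.767, 105 counts) and Trpa1 (1.0, 273 counts). SCVS 2 did so for Trpv3 (0.964, 153 counts), Trpv4 (0.753, 257 counts) and Tmem63c (0.989, 469 counts). SCVS 3 did so for Trpc7 (0.857, 13 counts), Trpm6 (0.977, 150 counts) and Trpm7 (0.767, 3629 counts), and SCVS 5 for Mcoln3 (0.829, 318 counts). In every case the pool was the highest of its group. Naive 1 and SCVS 4 had no such value.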

How the results depend on the processing

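The number of genes with an adjusted p under 0.1 was 0 in edgeR under every scaling, filter and omission tried, and 114 in DESeq2. No channel gene and no partner gene passed under any alternative. Trpm1 did not overlap between groups under any alternative, and the number of channel genes that did not overlap was 1 to 2 when replicates were left out in turn, with Mcoln1 joining without naive 4 (then 1.36% of tested genes) and Pkd2l2 without SCVS 1 (1.23%). Of the 15 log2 fold changes, 9 changed sign under at least 1 alternative, and those of Mcoln1, Trpv4, Pkd2l2, Trpm1, Tmem63b and Mcoln3 did not, although Mcoln3 could not be fitted under 4 of 16. Trpm4 moved from -0.46 to 7.04 without naive 2. Other scalings shifted the median of all genes by at most 0.045 (log2), and CPM scaled by TMM factors (0.946 to 1.14) moved the group mean of every channel gene by less than 1 SD. With at least 50 counts in place of 100, or up to 3 counts in place of 0, the unevenly detected genes numbered 6 and 7 in naive and 8 in SCVS.

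Same-numbered pools are different animals, and the labels do not say whether a number marks a shared cohort. The correlations of their deviations were 0.036, 0.045, -0.017, 0.063 and 0.149, of which 1 was over 0.1. As a hint from the data, 4 of 5 naive pools correlated best with the SCVS pool of their own number, and 3 of 5 SCVS pools with the naive pool of theirs. With a replicate block edgeR gave 0 genes and 0 channel genes past the threshold, and the block moved the log2 fold change of Trpm4 to 3.43, of Mcoln1 from 1.47 to 3.17 and of Pkd2l2 from 5.42 to 6.74.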
